A study of Mus musculus with 6 samples.

Results

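The genes described here are the RAS isoforms Nras and Hras, the R-RAS subfamily GTPases Rras, Rras2 and Mras, and the RAF kinases Araf and Braf, 7 genes in all. They were followed through every probe set that the platform annotation pairs with exactly 1 gene, that gene being on the list, which gave 22 of 45037 probe sets. These belong to 6 of the 7 genes, and Hras, which matched 0 probe sets by this rule, was not analysed here. RNA came from Ba/F3-N cells, a mouse bone marrow-derived line transformed with oncogenic NRAS-G12D, a background shared by both groups. The parent line Ba/F3 is of pro-B type and depends on interleukin-3. In 3 samples the cells had received 1 µM N-arachidonoyl dopamine (NADA), an arachidonic acid and dopamine conjugate that acts on vanilloid and cannabinoid receptors, and in 3 samples an equal volume of vehicle, with both groups harvested at 12 hours. Each sample was hybridised to 1 Affymetrix Mouse Genome 430 2.0 array. The species of the introduced NRAS, the promoter that drives it and whether the line is 1 clone are not stated in the labels. No label says that the replicates came from separate cultures, so the p-values rest on array-to-array spread that may be technical only, and 3 arrays a group limit the precision.

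RAS proteins are membrane-bound switches that signal when they hold GTP and stop when they hydrolyse it to GDP. An oncogenic substitution such as G12D keeps the protein in the GTP state. GTP-bound RAS recruits RAF kinases to the membrane, and RAF then phosphorylates MEK, which phosphorylates ERK. The R-RAS subfamily shares part of this effector range and is known for roles in integrin adhesion (R-RAS), PI3K signalling (TC21, the product of Rras2) and RAF dephosphorylation (M-RAS). The present comparison asks whether the transcripts of these switches and of the kinases they recruit differed after NADA in cells driven by 1 of them.

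Of all tested probe sets on the array, 70.8% were called. Relative to the bulk of transcripts, all 8 tested probe sets of the RAS-type GTPases were called, 3 higher and 5 lower. Those 8 belong to Nras, Rras, Rras2 and Mras only. Of the 12 tested probe sets of the RAF kinases 5 were called, 4 higher and 1 lower. Rras, the founding gene of the R-RAS subfamily, rose 2.79-fold, and its paralog Rras2 fell, with log2 fold changes of -0.65 and -0.82 in its 2 probe sets. Nras fell in all 3 of its probe sets, with log2 fold changes of -0.39, -0.38 and -0.25. Mras rose in both of its probe sets, with log2 fold changes of 0.45 and 0.24. The 4 tested probe sets of Araf disagreed in direction, with log2 fold changes from -0.25 to 0.39. Of the 8 tested probe sets of Braf 6 were not called, and the 2 that rose changed by 0.17 and 0.41. Rose and fell are used here for a Benjamini-Hochberg adjusted p under 0.05 in limma, taken over the 22519 probe sets whose mean intensity was at or above 39.01, the median of all probe sets other than controls.

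By that rule 13 of the 20 tested member probe sets were called, 7 higher and 6 lower in NADA, where 70.8% of all tested probe sets were called, 34.5% higher and 36.3% lower. In 14 of the 20 the 3 NADA values did not overlap the 3 vehicle values, against 73.9% of all tested probe sets. A change of at least 1.5-fold was seen in 3 of the 20, against 27.9% of all. The median log2 fold change was 0.07 over the members and 0.004 over all tested probe sets, and the median size of the change was 0.25 and 0.32. The share of members called is therefore near the background of this comparison. The results below concern the size and direction of each gene's change. All 20 tested probe sets lay above the dim limit on every array, the lowest single value being 41.9, so none entered the test through 1 group alone.

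The arrays of both groups had like medians, from 37.95 to 39.11, but differed in their controls. The 27 probe sets for bacterial poly-A transcripts, designed as a spike-in that goes through labelling with the sample, averaged 8.02 ± 0.18 (SD, n = 3) on the log2 scale in NADA and 7.52 ± 0.01 in vehicle. That such a spike-in was added in equal amount to each sample was taken as given for the scaling below and was not tested. For Actb the 3′ probe set exceeded the 5′ probe set by a log2 difference of 1.06 ± 0.05 in NADA and of 0.67 ± 0.04 in vehicle. For Gapdh that difference was -0.07 ± 0.06 in NADA and -0.22 ± 0.03 in vehicle, and the 18 probe sets of hybridization controls averaged 10.08 ± 0.05 and 9.93 ± 0.10. In each of these 4 measures the groups did not overlap, with an exact two-sided permutation p of 0.1, the smallest that 3 against 3 arrays allow. Scaled to the spike-in, every log2 fold change is lower by 0.51, the median over all tested probe sets is -0.50, and the calls over the array shift from 48.7% higher to 10.4% higher. Under that scaling Rras stayed higher in NADA, while the log2 fold changes of Mras and of all tested probe sets of Araf and Braf lay below 0, so the direction of Mras and of the RAF kinases is relative to the bulk of transcripts. In RNA from a whole culture, fewer cells of a type and less RNA per cell cannot be told apart. Of 14 markers of pro-B cells and of the interleukin-3 receptor on the array, 6 lay above the dim limit (Ptprc, Csf2rb, Csf2rb2, Il3ra, Cd79b and Igll1). The B-lineage genes Cd79a, Ebf1, Pax5, Rag1, Vpreb1 and Vpreb3 were dim in both groups. The 14 summed to intensities from 13807 to 13883 in NADA and from 6012 to 6244 in vehicle, and 5 of the 6 rose. Most of these sums came from Ptprc, Csf2rb2 and Csf2rb, at 6447, 3571 and 3337 in NADA and 4034, 702.5 and 989.4 in vehicle. Cd79b read 111.4 in NADA and 80.96 in vehicle, and Igll1, which was not called, 49.87 and 43.78. Of the markers of T and natural killer cells 2 of 6 lay above the limit (summed intensity 209 to 221 in NADA, 199 to 218 in vehicle). Of these Cd4 rose by 0.20 on the log2 scale (limma adjusted p = 0.0317) and Cd3e was not called. Of those of macrophages and granulocytes 2 of 6 did, with Adgre1 rising from 109 to 280 (summed intensity 407 to 423 in NADA, 211 to 241 in vehicle). Of those of fibroblasts, epithelium and endothelium 3 of 11 did (345 to 360 in NADA, 353 to 363 in vehicle). Kdr rose by 0.20 (limma adjusted p = 0.0392), Pecam1 fell by 0.18 on the log2 scale (limma adjusted p = 0.0308) and Epcam was not called. The part of these controls and markers in the changes of the members was not tested.

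**Figure D1:**
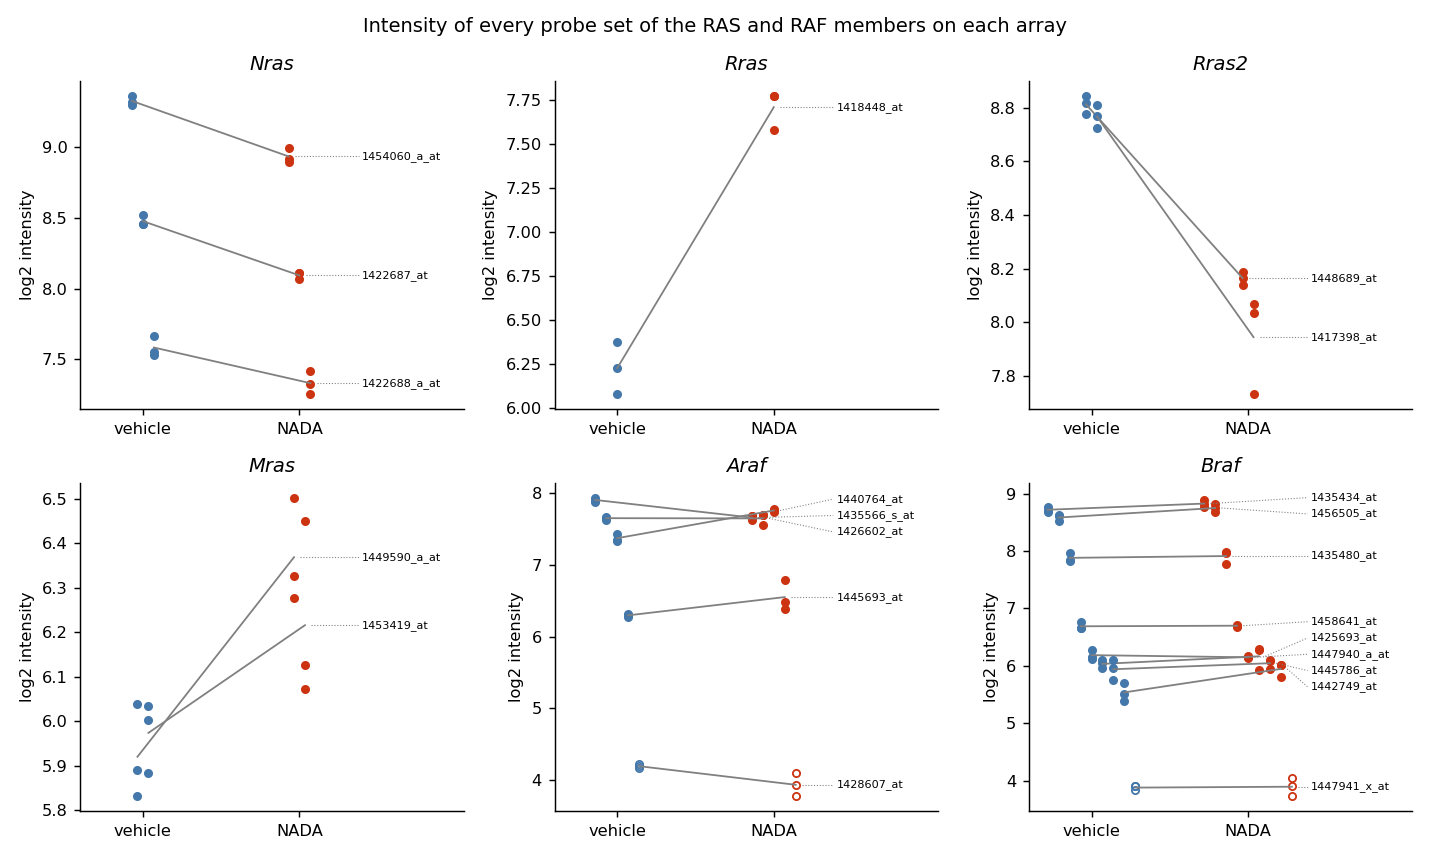
Log2 intensity (vertical axis) of all 22 member probe sets on each of the 3 vehicle and 3 NADA arrays, 1 panel per gene, with its own axis range. Each point is an array, lines join the group means, and open points are the 2 probe sets below the dim limit; the NADA points lie below the vehicle points in every probe set of Nras and Rras2 and above them in Rras and Mras.

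The paralogs that moved most are shown here with the mouse Nras locus, so that their annotated start regions can be set side by side. The promoter of the introduced NRAS is not stated, so the Nras window need not be the one that drives it. The windows hold 250 bases before and 50 after an annotated start site (RefSeq, GRCm38.p6), written 5′ to 3′ on the strand of the gene. They are chr7:45017692-45017991 on the plus strand for Rras, the most upstream of 3 windows listed for it, chr7:114117732-114118031 on the minus strand for Rras2, and chr3:103058035-103058334 on the plus strand for Nras. Capitals mark matches, on either strand, to GGGCGG (the GC box bound by SP-type factors), CACGTG (the E-box bound by MYC and related factors), TGACGTCA (the cyclic AMP response element), CCAAT and TTAGCATA, an element chosen after the Rras window was read because it recurs there.
Rras: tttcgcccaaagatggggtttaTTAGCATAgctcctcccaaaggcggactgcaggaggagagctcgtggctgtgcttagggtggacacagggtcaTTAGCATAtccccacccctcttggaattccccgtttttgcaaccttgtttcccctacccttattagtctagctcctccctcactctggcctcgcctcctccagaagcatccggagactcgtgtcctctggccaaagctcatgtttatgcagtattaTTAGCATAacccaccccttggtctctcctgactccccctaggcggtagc
Rras2: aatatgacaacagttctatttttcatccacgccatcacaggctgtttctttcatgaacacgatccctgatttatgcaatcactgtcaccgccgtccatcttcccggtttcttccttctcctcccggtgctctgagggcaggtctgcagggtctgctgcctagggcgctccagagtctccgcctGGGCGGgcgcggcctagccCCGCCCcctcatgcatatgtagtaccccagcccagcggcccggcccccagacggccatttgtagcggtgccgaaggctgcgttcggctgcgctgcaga
Nras: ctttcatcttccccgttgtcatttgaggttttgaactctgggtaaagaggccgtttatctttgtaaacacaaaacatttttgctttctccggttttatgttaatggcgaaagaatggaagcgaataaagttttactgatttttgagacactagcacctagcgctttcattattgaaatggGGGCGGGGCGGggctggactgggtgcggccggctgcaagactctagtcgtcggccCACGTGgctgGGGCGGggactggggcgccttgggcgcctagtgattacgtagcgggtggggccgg
The Rras window held TTAGCATA 3 times and none of the other elements, and 0.7% of 32851 windows of this length hold that element at least once. The 2 other Rras windows, further downstream, held no TTAGCATA and held CCAAT 1 and 2 times. The Rras2 window held 2 GC boxes and no other match. The Nras window held 3 GC boxes, the upstream pair of them overlapping, and 1 E-box. The GC box is present in 35.7% of all windows and the E-box in 7.15%. Among the members not printed, the window of Mras, which rose, held 2 GC boxes and CCAAT 2 times. The Hras window held 3 GC boxes and CCAAT 1 time. The Braf window held 1 GC box and TGACGTCA 2 times, the latter an element in 1.79% of windows. The Araf window held CCAAT 3 times, an element in 37.4%. These matches describe letters in the windows and were not tested against the expression values.

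Nras encodes the RAS isoform whose mutant form was introduced into these cells. Its brightest probe set, 1454060_a_at, read intensities of 509.97, 483 and 476 in NADA and 631, 658 and 638 in vehicle. Every NADA array lay below every vehicle array. The log2 fold change was -0.39 ± 0.04 (SE; 95% interval -0.49 to -0.30; limma adjusted p = 2.13e-06), so that the level fell by 23.8% relative to the bulk of transcripts. Probe set 1422687_at read 276, 276 and 268 in NADA and 352, 351 and 367 in vehicle, a log2 fold change of -0.38 ± 0.05 (limma adjusted p = 5.74e-06). Probe set 1422688_a_at read 153, 160.4 and 171 in NADA and 188, 203 and 185 in vehicle, a log2 fold change of -0.25 ± 0.06 (limma adjusted p = 0.00272). The 3 NADA values were the lower ones in all 3 probe sets, and the change of the brightest differed from those of the other 2 by -0.01 and -0.14, with overlapping groups (exact permutation p = 0.8 and 0.2, two-sided). The labels do not say whether signal here comes from the cells' own Nras, from the transforming allele, or from a mixture.

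Rras encodes R-RAS, a GTPase that promotes integrin-mediated adhesion. Its only probe set, 1418448_at, read intensities of 218, 218 and 191 in NADA and 67.6, 83.1 and 74.8 in vehicle. The lowest NADA array was well above the highest vehicle array. The log2 fold change was 1.48 ± 0.08 (95% interval 1.301 to 1.66; limma adjusted p = 2.22e-09), higher than that of 98.5% of all tested probe sets. It was 1.17 with 32 added before log2 and 0.97 on the spike-in scale. As the gene has 1 probe set, its change has no second measurement on these arrays.

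Rras2 encodes TC21, the R-RAS subfamily member nearest to the classical RAS proteins in its transforming activity. Probe set 1448689_at read 287, 292 and 282 in NADA and 459, 451 and 438 in vehicle. Probe set 1417398_at read 268, 262 and 213 in NADA and 449, 436 and 423 in vehicle. In both the groups were far apart, and in the second NADA replicate 3 was lower than its companions. The log2 fold changes were -0.65 ± 0.04 (95% interval -0.74 to -0.55; limma adjusted p = 1.94e-08) and -0.82 ± 0.08 (95% interval -0.99 to -0.66; limma adjusted p = 3.48e-07). Vehicle levels were 1.57-fold and 1.77-fold those in NADA. Without NADA replicate 3 the second value was -0.72. The 2 changes differed by 0.18 on the log2 scale, with groups that did not overlap (exact two-sided permutation p = 0.1, adjusted p = 0.28).

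Mras encodes M-RAS, which with SHOC2 and the protein phosphatase PP1 removes an inhibitory phosphate from RAF. Probe set 1449590_a_at read 80.3, 77.5 and 90.7 in NADA and 65.7, 57.0 and 59.3 in vehicle, a log2 fold change of 0.45 ± 0.08 (limma adjusted p = 0.000317). Probe set 1453419_at read 87.4, 69.8 and 67.3 in NADA and 59.0, 65.5 and 64.1 in vehicle, a log2 fold change of 0.24 ± 0.10 (limma adjusted p = 0.0409). The groups did not overlap in either, but in the second the lowest NADA value exceeded the highest vehicle value by little. That call was lost without NADA replicate 1 (0.13, limma adjusted p = 0.214), without vehicle replicate 1 (0.20, limma adjusted p = 0.135) and without vehicle replicate 3 (0.26, limma adjusted p = 0.0664), and under quantile normalization (limma adjusted p = 0.0589), median centring (0.0773), a floor of 50 (0.119), no dim filter (0.059) and no intensity trend (0.0553). On the spike-in scale both values were below 0, at -0.06 and -0.27.

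Araf encodes A-RAF, the RAF kinase with the lowest basal activity toward MEK. Its probe sets did not give 1 direction. Probe set 1435566_s_at, of a type that can bind transcripts of several genes, read 204, 204 and 197 in NADA and 237, 244 and 236 in vehicle, a log2 fold change of -0.25 ± 0.05 (limma adjusted p = 0.000665). Probe set 1426602_at read 206, 207 and 188 in NADA and 204, 200.2 and 198 in vehicle, with overlapping groups and a log2 fold change of 0.00 ± 0.06 (95% interval -0.13 to 0.12; limma adjusted p = 0.963). Probe set 1440764_at read 212, 216 and 219.7 in NADA and 161, 172 and 163 in vehicle, a log2 fold change of 0.39 ± 0.05 (limma adjusted p = 2.28e-05). The dimmer 1445693_at read 83.2, 89.3 and 110.5 in NADA and 77.3, 79.9 and 78.5 in vehicle, with NADA replicate 3 apart from the others, and changed by 0.25 ± 0.09 (limma adjusted p = 0.0274). Its call was lost without NADA replicate 3 (0.13, limma adjusted p = 0.123), without vehicle replicate 1 (0.24, limma adjusted p = 0.0697) and without vehicle replicate 3 (0.25, limma adjusted p = 0.0609), and under median centring (limma adjusted p = 0.0509) and a floor of 50 (0.102). The change of 1435566_s_at was lower than that of 1440764_at by 0.63 on the log2 scale, with groups that did not overlap (exact two-sided permutation p = 0.1, adjusted p = 0.28 over 14 pairs of probe sets within a gene). With all tested probe sets averaged, Araf changed by 0.10 ± 0.04 (limma adjusted p = 0.0623). Of 4858 genes with several tested probe sets, 240 (4.94%) had at least 1 called higher and at least 1 called lower. The fifth Araf probe set, 1428607_at, was dim, at 13.7 to 17.1 in NADA and 17.9 to 18.6 in vehicle, and was not tested.

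Braf encodes B-RAF, the RAF kinase with the strongest activity toward MEK. Its brightest probe set, 1435434_at, read 474, 452 and 436 in NADA and 435, 409 and 419.9 in vehicle. The NADA arrays lay just above the vehicle arrays, and the log2 fold change of 0.11 ± 0.05 (95% interval 0.005 to 0.21) was not called (limma adjusted p = 0.0581). It was called without NADA replicate 3 (0.14, limma adjusted p = 0.0144) and under quantile normalization (0.16, limma adjusted p = 0.00324), array weights (limma adjusted p = 0.0208) and the stricter dim filter (limma adjusted p = 0.0494). Probe set 1456505_at read 428, 453 and 409.7 in NADA and 394, 367 and 389.8 in vehicle, a log2 fold change of 0.17 ± 0.05 (limma adjusted p = 0.0104). This call was lost without NADA replicate 2 (0.13, limma adjusted p = 0.0603) and without vehicle replicate 2 (0.13, limma adjusted p = 0.0584). Probe set 1442749_at, near the dim limit, read 64.9, 55.8 and 64.7 in NADA and 45.8, 41.9 and 52.2 in vehicle, a log2 fold change of 0.41 ± 0.10 (limma adjusted p = 0.00197) that was 0.26 with 32 added before log2 and 0.28 with a floor of 50.

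The other 5 tested Braf probe sets, 1435480_at, 1458641_at, 1447940_a_at, 1425693_at and 1445786_at, had overlapping groups. Their log2 fold changes lay between -0.04 and 0.13, and their 95% intervals reached from -0.19 to 0.35 at the widest, so a change of the size seen in Rras lies outside them. Probe set 1425693_at read 77.8, 78.6 and 60.5 in NADA and 62.1, 68.4 and 66.2 in vehicle, and without NADA replicate 3 its log2 fold change was 0.26 and was called (limma adjusted p = 0.0109), as it was with array weights (0.21, limma adjusted p = 0.0243). The ninth probe set, 1447941_x_at, was dim in both groups (13.3 to 16.5 in NADA, 14.2 to 15.0 in vehicle) and was not tested. Averaged over its tested probe sets, Braf changed by 0.12 ± 0.05 (limma adjusted p = 0.0479). The change of 1435434_at exceeded that of 1447940_a_at by 0.15, with groups that did not overlap (exact two-sided permutation p = 0.1). Of all 14 pairs of probe sets compared within a gene, 5 did not overlap, in Rras2, Araf and Braf.

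**Figure D2:**
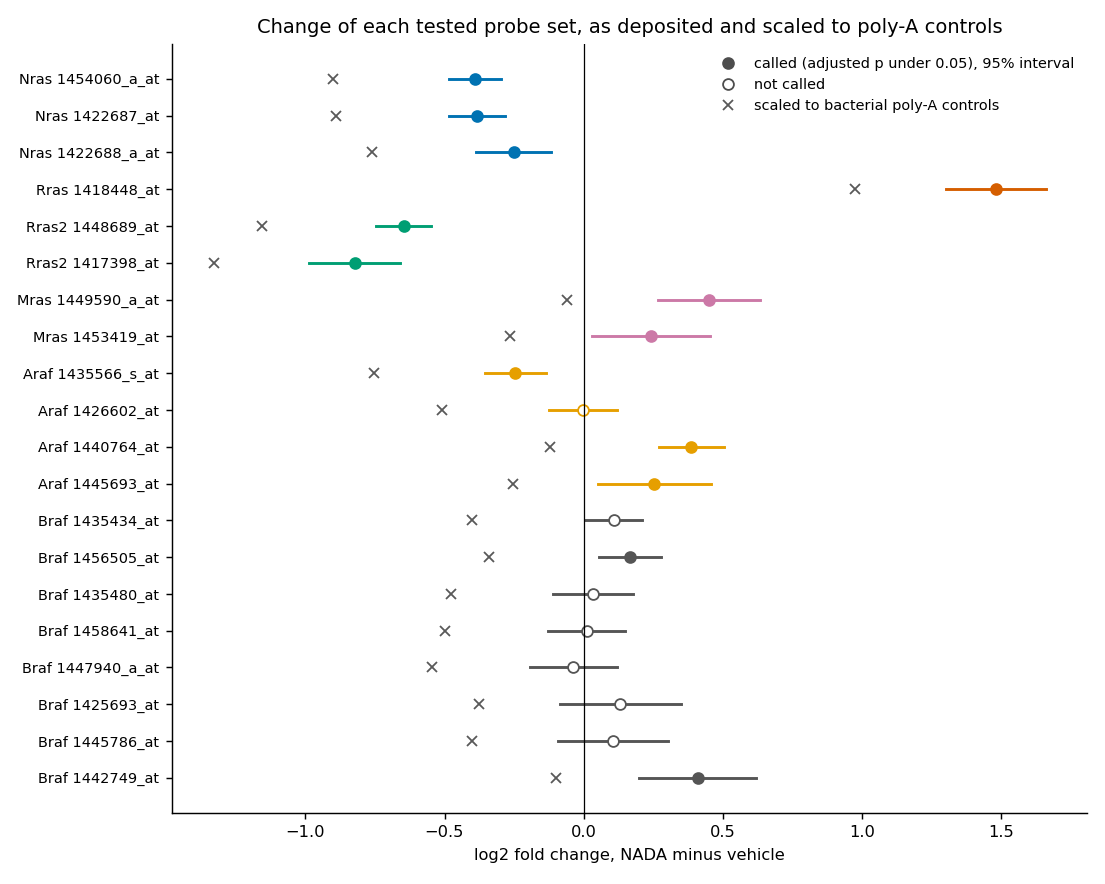
Log2 fold change, NADA minus vehicle (horizontal axis), of the 20 tested member probe sets, with 95% intervals from limma; filled circles were called, open circles were not, and crosses give the value with each array scaled to the bacterial poly-A spike-in. Rras lies to the right of 0 on both scales, at 1.48 and 0.97, Nras and Rras2 to the left of 0 on both, and the crosses of Mras, Araf and Braf all lie to the left of 0.

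The changes of the members were also compared with each other on each array. With the brightest probe set of each gene, the per-array log2 difference between 2 members separated NADA from vehicle arrays in all 15 pairs of members, against 80.8% of all pairs of 10520 genes, each with an exact two-sided permutation p of 0.1 and an adjusted p of 0.1 over the 15 pairs, the smallest possible and above the threshold of 0.05. The widest gap was between the paralogs Rras and Rras2, whose changes differed by 2.13 on the log2 scale. Rras exceeded Mras by 1.03, and Nras exceeded Rras2 by 0.26. The 5 pairs with Araf rest on 1435566_s_at, at -0.25, and by 1440764_at, at 0.39, Araf would lie above Braf, at 0.11, and not below it. Such differences are the same under any scaling that shifts a whole array.

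**Figure D3:**
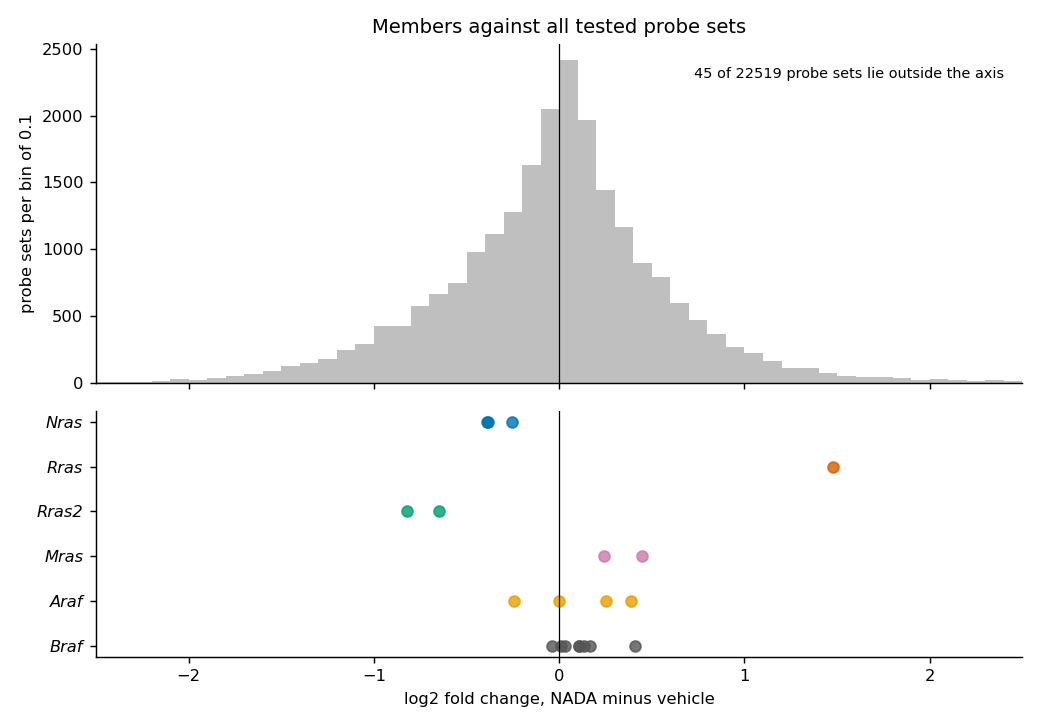
Distribution of log2 fold changes, NADA minus vehicle, over 22519 tested probe sets (upper panel, probe sets per bin of 0.1; 45 lie beyond the axis) and the tested probe sets of each member (lower panel, 1 point per probe set). Rras lies in the upper tail at 1.48, Rras2 lies at -0.65 and -0.82, and the probe sets of Braf cluster near 0 with 1 at 0.41.

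The genes whose values lay nearest to each member over the 6 arrays were found by Euclidean distance of log2 intensity, each probe set centred on its vehicle mean, among 10054 genes. For Nras they were Immt and Miga2, at distances of 0.04 and 0.04, and for Rras2 Ube2c and Hdac10, at 0.04 and 0.04. For Rras they were Slc49a4 and Il15, at 0.10 and 0.18. For Mras they were Abcd4 and Invs (0.08 and 0.08), and for Braf Gal3st2 and Tmem18 (0.03 and 0.03). For Araf they were Rmi1 and Ykt6 (0.02 and 0.03). Each member was taken at its brightest probe set, which for Araf is 1435566_s_at, while its 1440764_at and 1445693_at changed in the other direction. The log2 fold changes of Slc49a4 and Il15 were 1.498 and 1.487. The distances describe likeness over arrays that fall into 2 groups.

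The genes around these members on the pathway were taken at their brightest tested probe set, a level at which 72.5% of 10520 genes were called, 35.3% higher and 37.2% lower, with a median log2 fold change of 0.01. Of 8 tested genes around MEK, which are kinases of the MEK and KSR families, scaffolds and regulators and include no ERK gene, 3 rose and 3 fell (median 0.03). Iqgap1, a scaffold that binds RAF, MEK and ERK, rose by 0.86 ± 0.04 and the MEK1 partner Lamtor3 by 0.30 ± 0.03. The RAF inhibitor protein gene Pebp1 fell by 0.26 on the log2 scale. The MEK genes themselves moved little, Map2k1 by 0.14 ± 0.04 (limma adjusted p = 0.00929) and Map2k2 by -0.12 ± 0.05 (limma adjusted p = 0.0429).

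Regulators of RAF were mostly lower. Of 16 tested 11 fell and 3 rose, with a median of -0.16, where 37.2% of all genes fell and 35.3% rose. The 11 include the related 14-3-3 family genes Ywhaq, Ywhaz, Ywhab, Ywhag and Ywhae, with log2 fold changes from -0.08 to -0.38. Ppp5c, a phosphatase that acts on RAF, fell by 0.97 on the log2 scale and Cdc37, the cochaperone that delivers kinases to HSP90, by 0.51. Ppp1cb, a catalytic subunit of the PP1 that acts with M-RAS and SHOC2, rose by 0.17 ± 0.07, with overlapping groups (limma adjusted p = 0.0365). Ppp2r1a, a scaffold subunit of PP2A, rose by 0.15 ± 0.03. The other PP1 catalytic genes fell, Ppp1ca by 0.24 and Ppp1cc by 0.31 on the log2 scale, and Shoc2 was not called (0.09 ± 0.04, limma adjusted p = 0.0593). Without vehicle replicate 1, or with median centring, 1 RAF regulator rose. Leaving out any other single array, or the dim filter, gave 2. Quantile normalization and the dim filter at the 70th percentile gave 4. Among 14 genes of RAS processing and trafficking 7 fell and 4 rose (median -0.09). The depalmitoylase genes Abhd17c and Abhd17a, whose products release NRAS from the membrane, fell by 0.80 and 0.77 on the log2 scale. Icmt, which methylates the processed RAS carboxyl terminus, fell by 0.42. Zdhhc9, a palmitoyltransferase of NRAS and HRAS, rose by 0.23 ± 0.05, and Fnta, the farnesyltransferase alpha subunit, by 0.22 ± 0.03, while its beta subunit gene Fntb fell by 0.20.

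Of 10 other RAS effector genes tested 7 rose and 2 fell, with a median of 0.17. Rgl1, an exchange factor for RAL GTPases, rose by 1.01 ± 0.08 and the RAS-association domain gene Rassf1 by 0.50 ± 0.04, while Snx27 and the RAC exchange factor Tiam1 fell by 0.20 and 0.15 on the log2 scale. Without NADA replicate 2, or with quantile normalization, 1 effector fell. Among 15 other RAS-family GTPases 5 rose and 4 fell (median 0.07). Rit1, a RAS-related GTPase that also binds RAF, rose by 1.72 ± 0.04, from a vehicle intensity of 177 to 585 in NADA, and Nkiras1, an inhibitor of NF-kB signalling, by 0.78 ± 0.09. Rap2a and Rhebl1 fell by 0.82 and 0.55 on the log2 scale. Without NADA replicate 2, without vehicle replicate 2, or with median centring, 3 of these GTPases rose. Quantile normalization gave 7 and the replicate block 6. On the spike-in scale, called genes were 1 higher and 6 lower among the genes around MEK, 0 and 16 among RAF regulators, 0 and 14 among processing genes, 1 and 7 among effectors, and 2 and 13 among the other GTPases, with p-values that are too small because each array's scale factor carries an error shared by all its probe sets. The probe sets of Pebp1, Ppp5c, Ppp2r1a, Rhebl1, Fnta and Rassf1 are of types that can bind transcripts of several genes. The same holds for Ksr1, Ywhaq, Ywhaz, Ywhag, Ywhae, Abhd17b, Rassf5, Ralb and Rap2c, which are also counted in these lists.

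**Figure D4:**
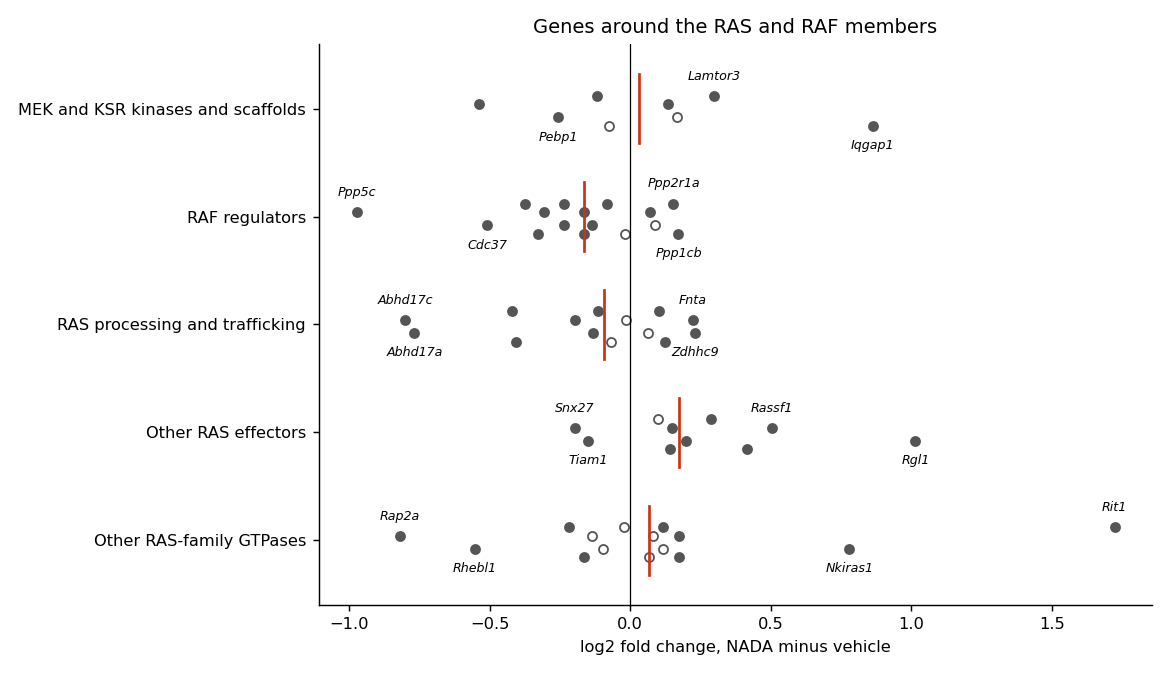
Log2 fold change, NADA minus vehicle (horizontal axis), of each tested gene in 5 groups of RAS and RAF pathway genes, at the brightest tested probe set of the gene. Filled points were called, open points were not, red bars are group medians (0.03, -0.16, -0.09, 0.17 and 0.07 from top to bottom), vertical offsets within a group only separate points, and genes with the 2 highest and 2 lowest called changes are named, with 1 exception in the top group.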

How the data were processed

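The authors deposited linear intensities for 45101 probe sets on each of 6 arrays, without detection calls. The submitters' processing notes name MAS5 and RMA without version or role. Neither the labels used here nor the file header states whether, or how, the deposited intensities had been normalized by the authors. The array medians lie close together, so changes read as relative to the bulk of transcripts. Groups came from sample titles.

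After taking log2, the 64 control probe sets and those with a mean intensity under 39.01 were left out. The other 22519 were fitted with limma 3.58.1 (lmFit, then eBayes with its intensity trend; group as the only term) in R 4.3.3, two-sided, with Benjamini-Hochberg adjustment over all of them. Each log2 fold change is given ± the fitted standard error. Differences between probe sets were tested by exact permutation. Promoter windows came from RefSeq. The table used here pairs 34945 probe sets with 1 gene, 932 with several and 9160 with none. On simulated data with 22519 probe sets and 50 changed at each size, the test called 38% of those changed 1.2-fold, 54% of those changed 1.3-fold, 92% of those changed 1.5-fold and 100% of those changed 2-fold, and 2.74% of 146 calls were false. The simulation changed few probe sets, while 70.8% were called in the data. Its noise was independent between probe sets, with no error shared by a whole array. Its shares therefore do not give the recovery or the false share of the calls made here.

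The members, lists and tests were chosen with earlier results of these data known. Genes named beside the members are the 2 highest and 2 lowest called of each list and the 2 nearest patterns of each member; 1 of these genes is not reported here. Others were named after their values were seen, which applies to Map2k1, Map2k2, Ppp1ca, Ppp1cc, Shoc2, Icmt and Fntb. It also applies to Ywhab, Ywhaq, Ywhaz, Ywhag and Ywhae. Ksr1, Abhd17b, Rassf5, Ralb and Rap2c are named only for their type of probe set. Plots used matplotlib 3.10.9. Alternatives covered scaling, low values, the dim filter, the model, the joining of probe sets, the threshold, a block for the replicate number, and 1 array left out at a time.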

Additional observations from a re-analysis of the deposited data

How the results depend on the processing

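The probe sets of Nras, Rras and Rras2 kept their direction and their call under every alternative except a minimum of 1.5-fold, which the 3 of Nras do not reach. Of 232 values of member probe sets under alternatives other than leaving out an array, 191 kept direction and call, 20 lost a call, 6 gained one and 15 turned direction. Of the 120 that leave out an array, 104 kept both.

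Scaling to the bacterial poly-A spike-in left 1 member probe set called higher and 15 lower, with p-values that are too small. The values that turned were those of Mras (-0.059 in 1449590_a_at and -0.27 in 1453419_at), Araf (-0.12 in 1440764_at and -0.25 in 1445693_at) and Braf (-0.38 in 1425693_at, -0.40 in 1435434_at, -0.48 in 1435480_at, -0.10 in 1442749_at, -0.40 in 1445786_at, -0.34 in 1456505_at and -0.50 in 1458641_at). Values near 0 also turned: Araf 1426602_at to 0.035 with quantile normalization and to 0.030 with array weights, and Braf 1435480_at and 1458641_at to -0.0041 and -0.026 with median centring. Leaving out 1 array gave -0.027 to 0.042 for Araf 1426602_at, and for Braf -0.0073 to 0.099 in 1435480_at, -0.073 to 0.010 in 1447940_a_at and -0.0079 to 0.044 in 1458641_at. The cause was not tested.

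Members called higher numbered 4 when the filter stood at the 70th percentile of intensity, where 12 were tested, and 4 at an adjusted p under 0.01, and 9 with array weights. At least 1.5-fold, 1 was higher and 2 lower, among 6272 called over the array against 15945. With 1 value per gene, 3 members were higher and 3 lower by the brightest probe set (7733 of 10520 genes called), and 3 higher and 2 lower by the mean of probe sets (7703 called). Leaving out 1 array gave 5 to 8 members higher, 6 lower each time, and 15027 to 15861 probe sets called. With the replicate block 7 were higher and 6 lower, 15956 were called, and no member's call changed. Deviations of same-numbered arrays correlated at 0.19, -0.10 and 0.02, and only replicate 1 matched its own number best. With 3 arrays a group this check cannot exclude that the arrays were paired. No depth can be read from array values, and calls near the dim limit rest on low signal.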
